A study of Rattus norvegicus with 20 samples.

Results

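The genes described are the 9 cytoskeletal genes Actb, Acta1, Acta2, Actc1, Tagln, Myl9, Cnn1, Des and Vim, as measured in rat rear-leg skeletal muscle. Every probe set whose single gene symbol in the platform annotation is 1 of these names was taken, which gave 13 of the 8799 probe sets on the array. The beta-actin control probe sets printed on the array were kept apart. The samples were 20 Affymetrix arrays in 4 groups of 5: muscle of normal rats, muscle of diabetic rats, and muscle of diabetic and of normal rats that had received vanadyl sulfate, a vanadium salt studied for insulin-like effects. The sources used here do not give the strain or age of the rats, the leg muscle sampled, the way diabetes was induced, or how much vanadyl sulfate was given and for how long. Since no label ties a replicate to an animal of its own, the p-values measure only the spread between these samples, which may be technical.

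Actin is the protein of thin filaments. Acta1 encodes the actin of adult skeletal muscle, Actc1 the cardiac form that skeletal muscle also makes before birth and in regenerating fibres, Acta2 the smooth muscle form of vessel walls and myofibroblasts, and Actb the cytoplasmic form found in nearly all cells. Tagln (transgelin), Myl9 (a regulatory myosin light chain) and Cnn1 (calponin) belong to the contractile apparatus of smooth muscle. Des (desmin) is the intermediate filament protein that ties muscle fibrils together at the Z-disc, and Vim (vimentin) is the intermediate filament protein of fibroblasts, endothelium, leukocytes and immature muscle cells.

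Many muscle actin genes are known targets of serum response factor, which binds a DNA element called the CArG box. The reference promoter windows of the actin genes were searched for it, because this element is what the muscle actins are known to share. The arrays measure RNA and not promoters, so the sequences describe the genes and not the samples. In RefSeq windows on rat build GRCr8, each 300 bases long, from 250 bases before to 50 bases after the gene's start, 6 of the 9 genes had a window. An exact CArG box was found in the windows of Actc1 and Acta1, against 1.64% of 33469 windows of all genes. A copy with 1 of its 6 inner bases changed was found in Acta2, Actc1 and Acta1, against 8.10% of all windows. The windows of Cnn1, Des and Vim held neither form. Both strands were searched for the box, which is named here without its letters because its inner positions take A or T. Shown are both exact boxes, and the changed copies of Acta2 with the Actc1 copy that shares letters with 1 of them. The lines give 30 bases each, 5′ to 3′ on the gene's strand, with the box in capitals.
Acta1, exact, first base 94 bases before the start, chr19:68784269-68784298, minus strand: tgcccaacacCCAAATATGGcttgggaagg
Actc1, exact, first base 3 bases into the transcript, chr3:121271806-121271835, minus strand: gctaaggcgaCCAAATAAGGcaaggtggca
Actc1, 1 base changed, 126 bases before the start, chr3:121271934-121271963, minus strand: ctccctagatCCCTATATGGccattgctct
Acta2, 1 base changed, 134 bases before the start, chr1:241172618-241172647, minus strand: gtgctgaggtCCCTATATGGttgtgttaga
Acta2, 1 base changed, 84 bases before the start, chr1:241172568-241172597, minus strand: tgtctttgctCCTTGTTTGGgaagcgagtg
The same 10 letters, CCCTATATGG, stood upstream in Actc1 and Acta2. A match of letters is a description of the window, not a measured binding site.

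Values are MAS5 signals, an intensity that has no fixed unit and that cannot be set against another probe set's. Changes are differences of group means of log2(signal + 16), given ± the standard error of a limma fit to all 20 arrays, with p-values adjusted by the Benjamini-Hochberg method over 6027 probe sets and a threshold of 0.05. All 13 member probe sets passed the filter on dim signals. Skeletal muscle markers were bright in every array: Ckm (muscle creatine kinase) ranked at the 100th percentile of its array, and Tnnt3 (fast troponin T) at the 99.3rd percentile or above. RNA quality varied within groups. For the Gapdh control, the 3′ signal over the 5′ signal on the log2 scale was above 2 in normal replicates 1 and 3 and treated diabetic replicate 1, and ran from -0.0038 to 1.31 in the other 17 arrays. Treated diabetic replicate 5 stood apart in another way: 4.43% of tested probe sets lay more than 2 log2 units below its group's mean there, against 3.00% or less in each other array.

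No member probe set passed the threshold in any comparison. Between diabetic and normal muscle, 0 of 13 passed, while 1.83% of all tested probe sets did (110 of 6027). For treated diabetic against diabetic muscle it was 0 of 13, with 0.498% of all probe sets. The other comparisons also gave 0 of 13: treated normal against normal (0.0664% of all), treated diabetic against normal (0% of all) and the interaction (0.166% of all), which subtracts the treatment difference of normal rats from that of diabetic rats. At an unadjusted p under 0.05 the members numbered 1, 5, 1, 2 and 2 in these comparisons, and the corresponding shares of all probe sets were 16.7%, 16.3%, 9.23%, 12.8% and 13.3%. The members were measured with more scatter than most: their median standard error was 0.64 on the log2 scale, against 0.36 over all tested probe sets. Without treated diabetic replicate 5 it was 0.42 for the comparison of treated diabetic with diabetic muscle.

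**Figure D1:**
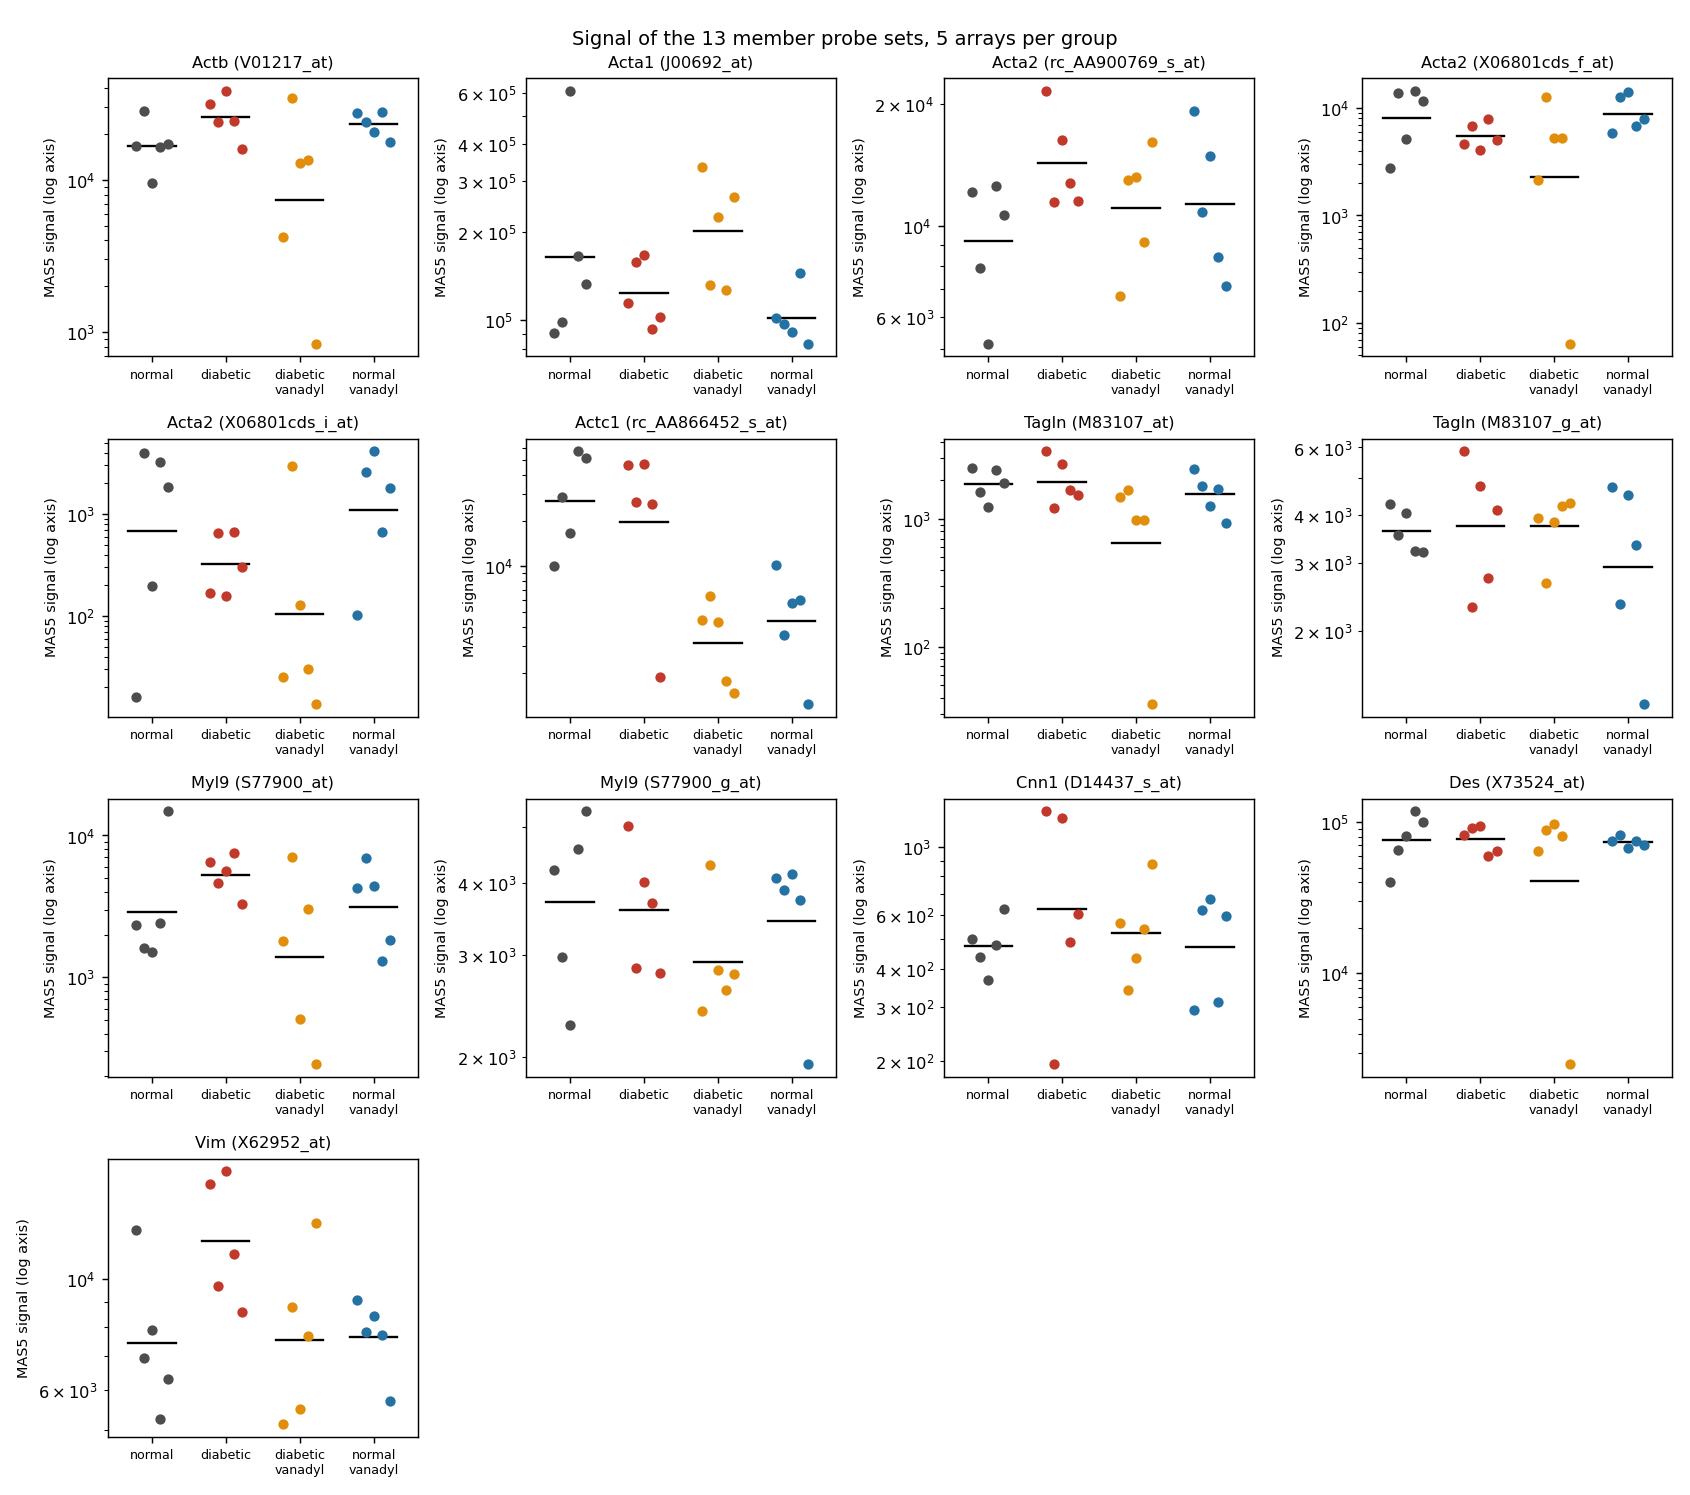
MAS5 signal (log axis) of the 13 member probe sets in each array; each point is 1 array, in order of replicate number, and each bar is the group's mean of log2(signal + 16) turned back to signal, n = 5 per group. Groups overlap in most panels, Actc1 is lower in the treated groups, and treated diabetic replicate 5, the last point of its group, is far below the others for desmin and 1 transgelin probe set.

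In the comparisons of treated with untreated muscle, Actc1 had the largest differences of the members. Its signals in normal muscle were 10095, 28692, 16645, 57309 and 51391, and in diabetic muscle 46406, 26534, 47217, 25667 and 1882. Treated diabetic muscle gave 4451, 6379, 4281, 1756 and 1464, and treated normal muscle 10216, 3529, 5788, 6033 and 1246. Of the 10 untreated arrays, 8 lay above every treated array; the others were normal replicate 1, level with the highest treated array, and diabetic replicate 5, among the lowest of all 20. Treated diabetic and normal muscle did not overlap. The share of all probe sets without overlap in that comparison is not given, so this does not set Actc1 apart.

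The log2 change of Actc1 was -2.62 ± 0.76 for treated diabetic against diabetic (6.15-fold, adjusted p = 0.122) and -2.62 ± 0.76 for treated normal against normal (6.16-fold, adjusted p = 0.335). Against untreated normal muscle, treated diabetic muscle differed by -3.09 ± 0.76 (8.50-fold, adjusted p = 0.27). Diabetic and normal muscle differed by -0.47 ± 0.76 (adjusted p = 0.8). The interaction was 0.00 ± 1.08, with an unadjusted 95% interval of -2.25 to 2.25, so the treatment differences were not shown to be alike. A comparison of all treated with all untreated arrays was added after these values had been seen, and so it is no independent support: it gave -2.62 ± 0.54 (adjusted p = 0.0601; 0 of 13 members and 0.0996% of all probe sets passed).

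Diabetic replicate 5 bears on these values more than any other array. It stands out by its own low Actc1 value, so a fit without it is picked from the tested values and is no independent support. Without diabetic replicate 5 the change for treated diabetic against diabetic muscle was -3.46 ± 0.59 (adjusted p = 0.00717). That of all treated against all untreated was then -3.04 ± 0.41 (adjusted p = 0.00143). Without the 3 arrays of high Gapdh ratio, Actc1 also passed for treated diabetic against normal muscle (-3.91 ± 0.92, adjusted p = 0.03). With array weights it passed for treated diabetic against diabetic muscle (-2.80 ± 0.70, adjusted p = 0.0455). In the added comparison it passed under 9 of 32 alternatives, and the adjusted p over all 32 ran from 0.00143 to 0.324. The change kept its sign in the treated against diabetic, treated against normal and added comparisons under every alternative run. With both RNA quality ratios as covariates the added comparison gave -2.62 ± 0.55 (adjusted p = 0.0456).

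Probe sets annotated to both Acta2 and Actc1 carry further information, since the sequences of the actins are nearly identical and such probe sets cannot name 1 gene. Of the 4 on the array, 1 was too dim to be tested. Over the 20 arrays the log2 values of the other three correlated with Actc1 at r = 0.98 (rc_AI104567_g_at), 0.94 (X80130cds_i_at) and 0.78 (X80130cds_f_at), and with the brightest Acta2 probe set at 0.25, 0.22 and -0.04. These correlations are descriptions, since probe sets of the same transcript share their arrays and possibly their target. For treated diabetic against diabetic muscle their changes were -2.12 ± 0.73, -2.23 ± 0.68 and -1.84 ± 0.78 (adjusted p = 0.178, 0.128 and 0.253). The probe set rc_AI104567_g_at read 28727, 10394, 26079, 15884 and 1400 in diabetic muscle, with the low value again in replicate 5, and 3407, 5096, 3836, 1509 and 1097 in treated diabetic muscle. Treated normal and normal muscle did not overlap at this probe set, with 680 to 9835 against 11768 to 29131. The share of all probe sets without overlap is not given for this comparison either. Without diabetic replicate 5 rc_AI104567_g_at passed for treated diabetic against diabetic muscle, with a change of -2.86 (adjusted p = 0.0265). Here too the array left out stands out by its own low value, so this is no independent support. Cross-hybridisation between actin genes cannot be told apart from expression here.

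**Figure D2:**
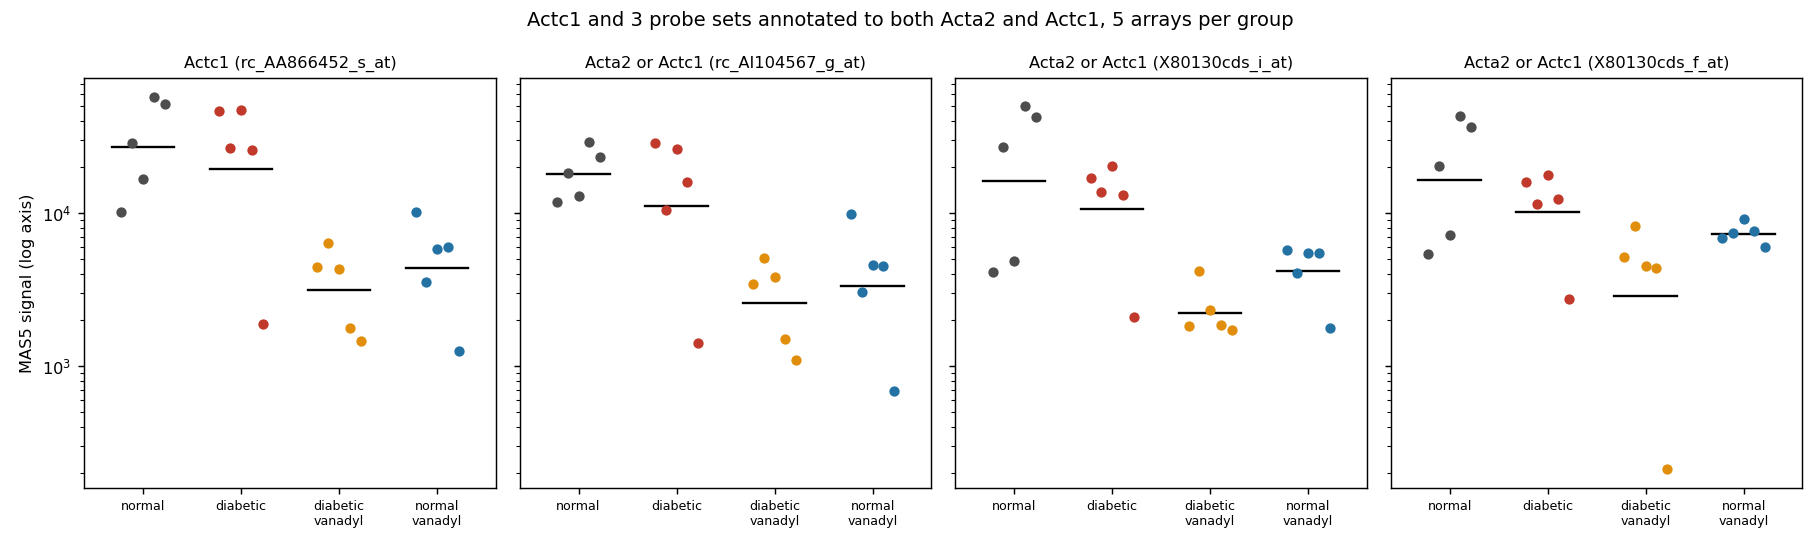
MAS5 signal (log axis) of the Actc1 probe set and of 3 probe sets annotated to both Acta2 and Actc1; each point is 1 array and each bar the group's mean of log2(signal + 16), n = 5 per group. All 4 panels have the lower values in the treated groups, and the last diabetic point, replicate 5, lies with the treated arrays in each.

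Genes of other muscle types were read beside Actc1. Of 7 measured genes of the cardiac list, 0 passed in any of the 6 comparisons. Of the 8 genes of that list on the array, the hormones Nppb and Nppa and the troponin I gene Tnni3 had median percentiles of 23.0, 37.8 and 42.3 within the array. The others were higher: 53.8 for Tnnt2, 69.6 for Myl7, 75.4 for Myl4, 90.0 for Actc1 itself and 96.5 for Myh6. The cardiac list's mean difference from the normal group, Actc1 included, lay between -0.48 and 0.65 in normal and between -0.99 and 0.70 in diabetic muscle. In treated diabetic muscle it lay between -1.48 and -0.10, and in treated normal muscle between -1.31 and -0.25. Since Actc1 is 1 of the 7 genes averaged, its own low values are part of these means. No mean without it is given, so the means add no separate support. Tnni1 (slow troponin I) had changes in the same direction as Actc1 that did not pass, -1.73 ± 0.57 for treated diabetic against diabetic (adjusted p = 0.164) and -1.60 ± 0.57 for treated normal against normal muscle (adjusted p = 0.413). The skeletal muscle fibre list that holds Tnni1 did not share this direction in diabetic rats, where 10 of its 14 genes had values above 0 (median 0.64). In normal rats 13 of the 14 had values below 0 (median -0.65), so the direction of Tnni1 there was that of the list. After quantile normalization 7 of the 14 were above 0 in diabetic and 4 of the 14 in normal rats (medians -0.01 and -0.14). For Myh3, which encodes the myosin heavy chain of embryonic muscle, the test was passed: it rose in diabetic muscle (2.57 ± 0.52, adjusted p = 0.0155) and fell in treated diabetic against diabetic muscle (-2.34 ± 0.52, adjusted p = 0.0471). The second of these calls was lost after quantile normalization and after median centring, and between treated normal and normal muscle 0 of the 11 regenerating muscle genes passed. Whether fibre type or regeneration had a part in the Actc1 values was not tested. In bulk RNA, fewer cells of a type and less RNA per cell cannot be told apart. The genes whose log2 values were most like those of Actc1 over the 20 arrays, among 3581 genes, were Homer2 (r = 0.82), Rrad (0.75) and Nthl1 (0.74).

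Acta1, the main actin of skeletal muscle, ranked at or above the 99.9th percentile in every array. It read 90325, 98560, 607863, 165384 and 132586 in normal muscle and 114174, 157956, 167337, 93042 and 102333 in diabetic muscle. In treated diabetic muscle it read 333803, 131691, 226089, 127055 and 263564, and in treated normal muscle 101534, 97083, 91470, 145288 and 83099. Normal replicate 3 was the highest of all, and the treated diabetic group held the next 3 highest arrays. Normal replicate 3 and treated diabetic replicate 1 had high Gapdh ratios (2.91 and 3.94). Normal replicate 1, at 2.90, read only 90325. Over 20 arrays Acta1 had r = 0.64 with that ratio (permutation p = 0.00592, adjusted p = 0.0533 over 18 relations). Dropping the 2 most extreme ratios brought r to 0.17, while the 17 arrays of low ratio gave 0.66 (permutation test, adjusted p = 0.0345). The cause of the high values was not tested. All groups overlapped. The change was -0.41 ± 0.41 between diabetic and normal (adjusted p = 0.645), 0.71 ± 0.41 for treated diabetic against diabetic (adjusted p = 0.394) and -0.69 ± 0.41 for treated normal against normal muscle (adjusted p = 0.609).

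The treatment differences of Acta1 pointed opposite ways in diabetic and normal rats, with an interaction of 1.40 ± 0.58 (unadjusted p = 0.0269, adjusted p = 0.31). After quantile normalization the changes were -0.01 and 0.05 and the interaction was -0.06. That method gives each rank the same value in every array, so a probe set at the top ranks is held near 0. It therefore cannot decide the direction of these differences, which is not settled. The log2 values of Acta1 followed those of other abundant fast-muscle genes closely, Ckm at r = 0.993, Tpm1 (a tropomyosin) at 0.988 and Tnnc2 (fast troponin C) at 0.987 over 20 arrays.

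**Figure D3:**
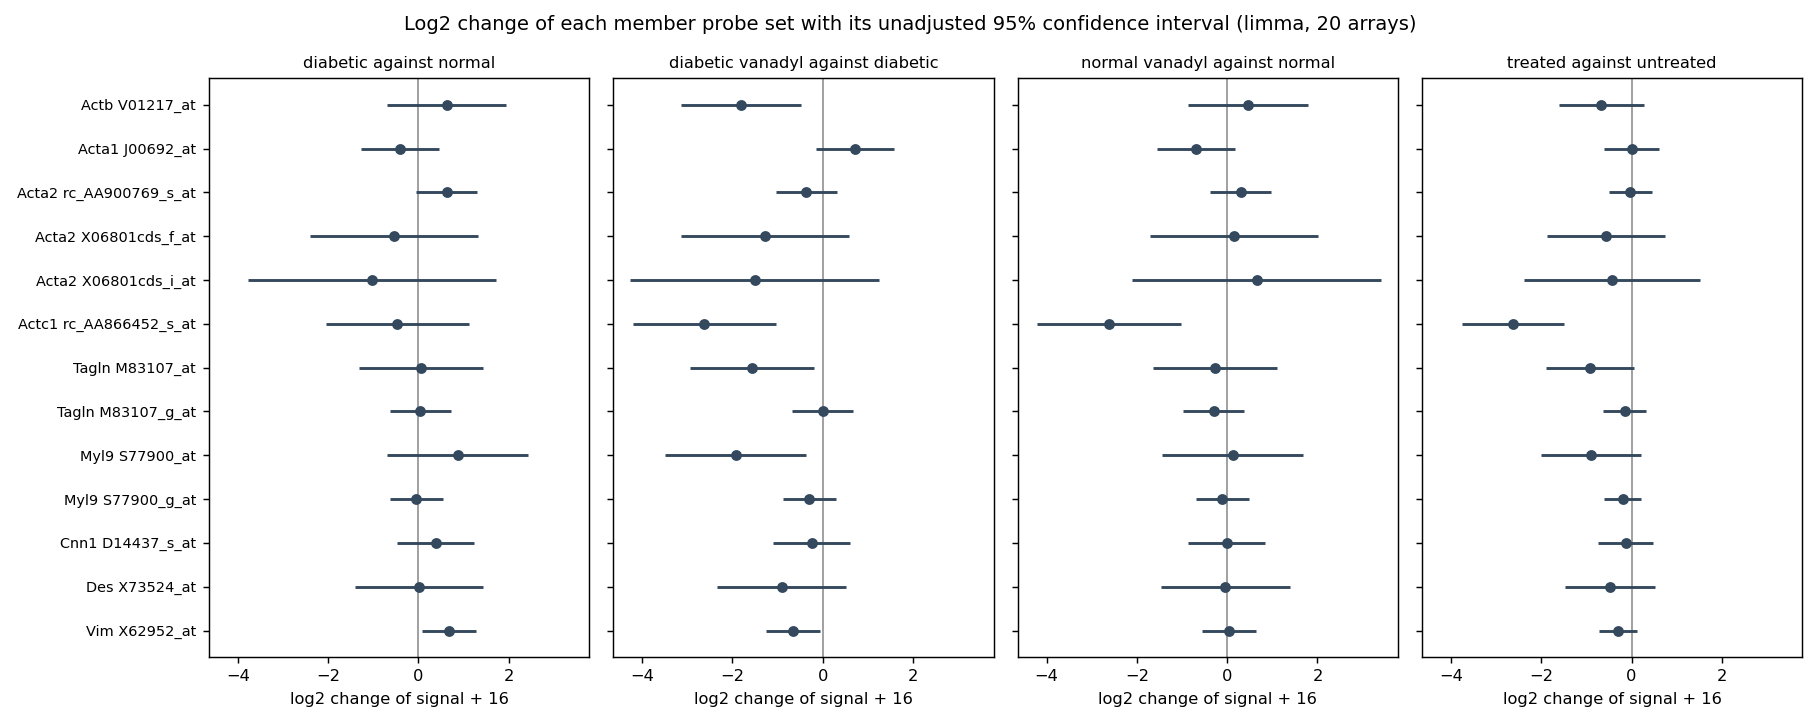
Log2 change (horizontal axis) of each member probe set in 4 comparisons, with the unadjusted 95% confidence interval from the limma fit to 20 arrays; treated against untreated was added after the Actc1 values were seen. Actc1 has the lowest values in the 3 treatment panels, near -2.62, and Vim is above 0 for diabetic against normal with an interval of 0.07 to 1.27.

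Vim had the smallest p among the members between diabetic and normal muscle. Its signals were 12549, 6962, 7911, 5240 and 6326 in normal and 15467, 9702, 16401, 11201 and 8601 in diabetic muscle. Treated diabetic muscle gave 5129, 8788, 5503, 7706 and 12921, and treated normal muscle 9093, 7819, 8442, 7736 and 5700. Diabetic replicates 1 and 3 were the highest of all arrays, and the diabetic group overlapped with normal muscle only through normal replicate 1. The beta-actin control's 3′ to 5′ ratio was high in these arrays, at 2.30, 2.52 and 3.01 on the log2 scale. Treated diabetic replicate 1, at 2.61, had the lowest Vim signal of all. Over 20 arrays Vim had r = 0.46 with that ratio (permutation p = 0.0391, adjusted p = 0.206 over 18 relations).

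The Vim change was 0.67 ± 0.29 (1.59-fold, adjusted p = 0.232) between diabetic and normal muscle and -0.65 ± 0.29 (1.57-fold, adjusted p = 0.267) for treated diabetic against diabetic muscle. It passed the threshold between diabetic and normal muscle with array weights (0.87 ± 0.25, adjusted p = 0.0385) and when the 3 arrays of high Gapdh ratio and treated diabetic replicate 5 were left out (0.95 ± 0.26, adjusted p = 0.0276). Without diabetic replicates 1 and 3 the change was 0.39, with the highest adjusted p of the alternatives (0.846, against a lowest of 0.0276). Between treated normal and normal muscle the change was 0.04 ± 0.29 (adjusted p = 0.973).

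Markers of cells that contain vimentin were read beside it, and of the leukocyte, fibroblast and endothelial lists only the first had no overlap between diabetic and other arrays. That was not particular to leukocytes, since the adipocyte list had no overlap either. Its mean difference from the normal group lay between 1.00 and 1.63 in diabetic arrays. The highest values elsewhere were 0.37 in normal, 0.87 in treated diabetic and 0.32 in treated normal muscle. Of 14 measured macrophage and leukocyte genes, 7 rose in diabetic muscle and 3 fell in treated diabetic against diabetic muscle (7 and 2 after quantile normalization, 6 and 2 after median centring). The list's mean difference from the normal group lay between 0.58 and 2.18 in diabetic arrays, above every array of the other groups (normal -0.45 to 0.33, treated diabetic -0.35 to 0.53, treated normal 0.15 to 0.50). Of 18 fibroblast and connective tissue genes, 2 rose in diabetic muscle: S100a4 (2.23 ± 0.53, adjusted p = 0.0348) and Lox, which cross-links collagen (3.11 ± 0.41, adjusted p = 0.000587). The S100a4 call was lost after quantile normalization. The other 16 did not pass, 10 of the 18 had values above 0, and 0 passed for treated diabetic against diabetic muscle. That list's mean difference overlapped between all groups (normal -0.59 to 0.42, diabetic 0.07 to 0.70, treated diabetic -0.36 to 0.75, treated normal -1.11 to 0.51). Of 8 endothelial genes, Esm1 alone rose in diabetic muscle, while 5 of the 8 had values below 0 and the median was -0.02. These lists were written with results of these data known, and the part of such cells in the Vim values was not tested. The genes most like Vim over the 20 arrays were Id2 (r = 0.89), Fabp5 (0.84) and Ctss, a lysosomal protease of macrophages (0.82).

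Des, the desmin gene, read 40449, 65075, 81054, 117687 and 100114 in normal muscle and 81863, 91064, 94263, 59599 and 63933 in diabetic muscle. Treated normal muscle gave 74413, 82056, 67732, 75007 and 70557. In treated diabetic muscle it read 64104, 87852, 97708, 80665 and 2522. A single array, treated diabetic replicate 5, was thus far below all others, and the remaining 19 arrays lay between 40449 and 117687. The change for treated diabetic against diabetic muscle was -0.91 ± 0.68 (adjusted p = 0.519) and between diabetic and normal muscle 0.02 ± 0.68 (adjusted p = 0.991).

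The same array decided other values. The genes most like Des were Pygm (muscle glycogen phosphorylase, r = 0.96), Aldh2 (0.95) and Orai1 (0.95), and without treated diabetic replicate 5 these fell to 0.71, 0.61 and 0.57. In it, 7 of the 13 member probe sets lay more than 1 log2 unit below their group's mean, and 5 had there their lowest deviation of any array. In treated diabetic replicate 2, 7 of the 13 lay more than 1 log2 unit above the same mean, which includes replicate 5. Over all 13, the median change for treated diabetic against diabetic muscle was -0.91 (all tested probe sets: 0.08) with 2 positive and 11 negative values. Without treated diabetic replicate 5 the median was -0.49 (all: 0.06), again with 2 positive and 11 negative.

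**Figure D4:**
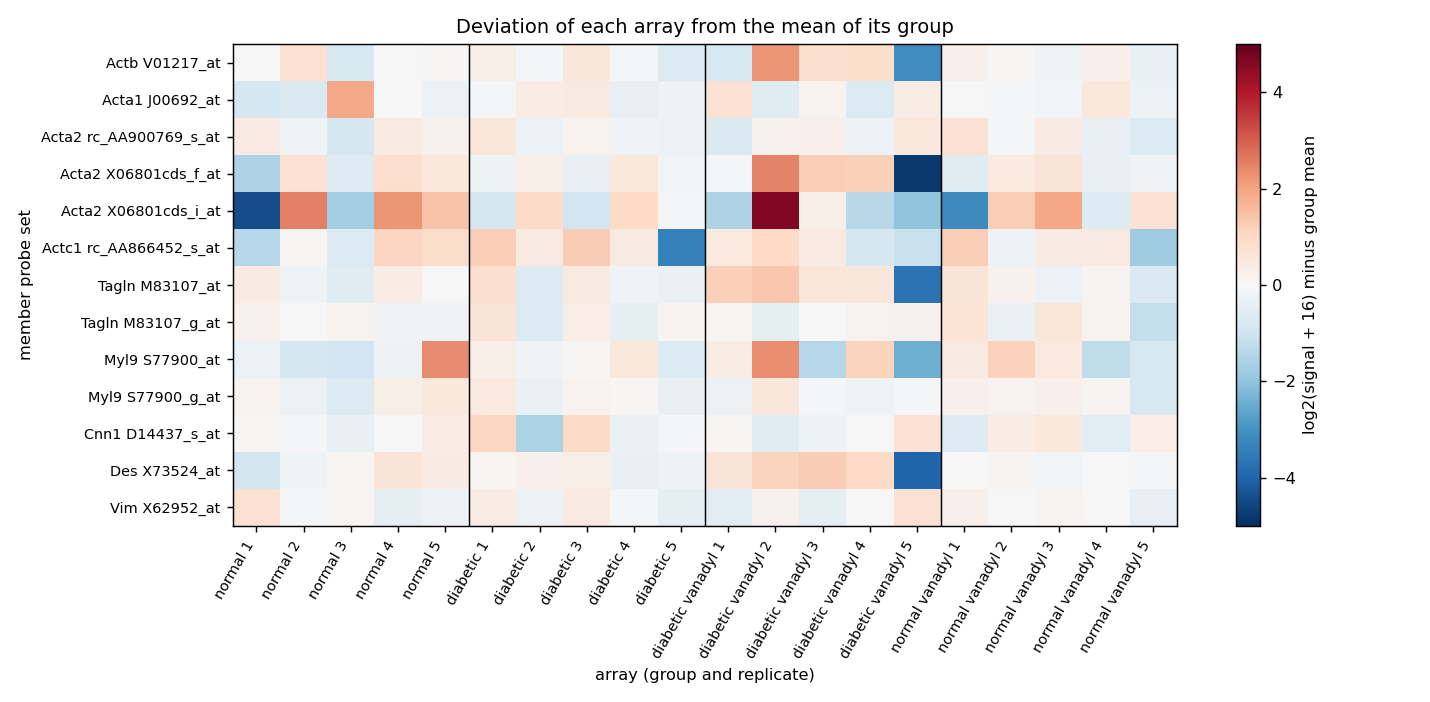
Deviation of each array (columns) from its group's mean log2(signal + 16) for the 13 member probe sets (rows); blue is below and red above the group mean, as in the colour bar in log2 units. Treated diabetic replicate 5 lies more than 1 log2 unit below its group in 7 of 13 rows, Actb and Des among them, and the Acta2 probe set X06801cds_i_at varies widely.

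Actb was also lowest in treated diabetic replicate 5. In diabetic muscle it read 31426, 24028, 38392, 24484 and 16064, and in treated diabetic muscle 4209, 34372, 12939, 13547 and 837. In normal muscle it read 16818, 28542, 9605, 16431 and 17330, and in treated normal muscle 27362, 23963, 20642, 27851 and 17712. Its values in treated diabetic muscle were spread over a wider range than those of any other group and included both the lowest array of all 20 and the second highest.

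The Actb change for treated diabetic against diabetic muscle was -1.81 ± 0.64 (3.50-fold, adjusted p = 0.188). It was -0.50 when the 3 arrays of high Gapdh ratio and that replicate were left out. Between diabetic and normal muscle the change was 0.62 ± 0.64 (adjusted p = 0.649), and for the interaction -2.28 ± 0.90 (adjusted p = 0.281). The r of this probe set with the 3′ beta-actin control was 0.71 over 20 arrays and -0.14 without treated diabetic replicate 5. A pair of further probe sets is annotated to Actb together with the gamma-actin genes Actg1 and Actg1l1. Their changes for treated diabetic against diabetic muscle were -1.06 ± 0.76 (rc_AI070848_f_at, adjusted p = 0.499) and 0.00 ± 0.37 (rc_AI179012_s_at, adjusted p = 0.996). At the second of these the untreated and treated arrays ran from 21398 to 97056 and from 25556 to 83418. The genes most like Actb were Serpinh1, a collagen chaperone (r = 0.91), Rpl11 (0.91) and Mybpc1 (0.89), or 0.71, 0.69 and 0.69 without that replicate.

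The smooth muscle genes are 4 of the members, with 8 probe sets. Acta2 was measured by 3 of these, and they disagreed. Its brightest, rc_AA900769_s_at, read 12163, 7907, 5146, 12557 and 10692 in normal, 21521, 11515, 16307, 12754 and 11562 in diabetic, 6733, 12974, 13212, 9163 and 16121 in treated diabetic and 19255, 10875, 14925, 8421 and 7144 in treated normal muscle. The groups overlapped, and diabetic replicate 1 was the highest array. The change was 0.63 ± 0.32 between diabetic and normal (adjusted p = 0.333) and -0.36 ± 0.32 for treated diabetic against diabetic muscle (adjusted p = 0.594).

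The other Acta2 probe sets, X06801cds_f_at and X06801cds_i_at, correlated with each other (r = 0.74, Spearman rho = 0.92 over 20 arrays) and not with the brightest (r = -0.17 and -0.10). X06801cds_i_at spanned a 299-fold range over the arrays, with 16 to 3997 in normal and 159 to 667 in diabetic muscle. Treated diabetic muscle gave 14 to 2964 and treated normal muscle 104 to 4128. X06801cds_f_at ran from 2756 to 14391, 4097 to 7862, 64 to 12655 and 5858 to 14001 in the same groups. The suffix f is Affymetrix's mark for probes shared by a family of sequences. None of their group changes passed. Between diabetic and normal muscle they were -0.54 ± 0.89 for X06801cds_f_at (adjusted p = 0.803) and -1.03 ± 1.32 for X06801cds_i_at (adjusted p = 0.732). Both were opposite in sign to that of the brightest probe set. When the 3 arrays of high Gapdh ratio and treated diabetic replicate 5 were left out, X06801cds_f_at was lower in diabetic muscle (-1.26 ± 0.35, adjusted p = 0.0309).

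Both of these Acta2 probe sets varied with the 3′ to 5′ ratios of the control probes, a measure of RNA and labelling quality. The beta-actin ratio is itself read from actin probes, and the Gapdh ratio is not. For X06801cds_i_at, Pearson r with the log2 ratio was -0.92 (permutation p = 1e-05, the smallest that 100000 resamples can give, adjusted p = 8e-05 over 8 relations) and Spearman rho -0.89 (permutation p = 1e-05, adjusted p = 2.67e-05). When the 2 arrays with the most extreme ratios relative to the median were left out, r was -0.89, and with group means removed -0.90. For X06801cds_f_at, r was -0.57 (permutation p = 0.00178, adjusted p = 0.00475) and rho -0.90 (permutation p = 1e-05, adjusted p = 2.67e-05), with r = -0.55 without the 2 farthest arrays and -0.48 with group means removed (adjusted p = 0.0821). The brightest probe set had r = 0.17 (permutation p = 0.486, adjusted p = 0.584 over 18 relations) and rho = 0.16 (permutation p = 0.514, adjusted p = 0.685) with the same ratio. For X06801cds_i_at the relation was not particular to the actin control. Over 20 arrays its r with the Gapdh ratio was -0.71 (permutation p = 0.00011, adjusted p = 0.00044) and rho -0.87 (permutation p = 2e-05, adjusted p = 4e-05). For X06801cds_f_at, r with the Gapdh ratio was -0.47 and did not pass (permutation p = 0.0625, adjusted p = 0.125). Its rho was -0.89 (permutation p = 1e-05, adjusted p = 2.67e-05). Over the 17 arrays of low Gapdh ratio, r with the Gapdh ratio was -0.87 for X06801cds_i_at (permutation p = 1e-05, adjusted p = 2.67e-05; rho = -0.87, permutation p = 2e-05) and -0.75 for X06801cds_f_at (permutation p = 1e-05, adjusted p = 2.67e-05; rho = -0.88, permutation p = 1e-05). These 8 relations were added after the values had been seen.

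**Figure D5:**
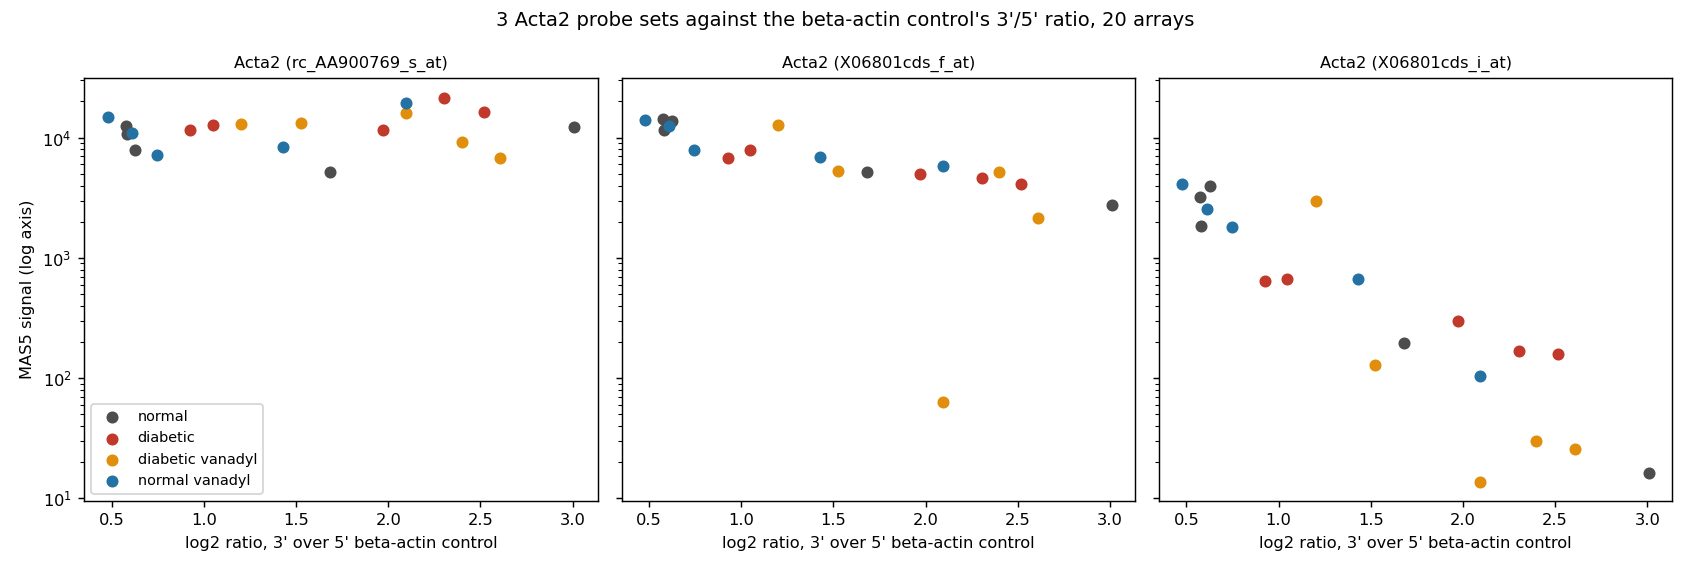
MAS5 signal (vertical log axis) of the 3 Acta2 probe sets against the 3′ to 5′ ratio of the beta-actin control on a log2 scale (horizontal axis); each point is 1 of 20 arrays, coloured by group. Both X06801cds probe sets fall as the ratio rises, with r = -0.57 and -0.92, and the brightest one does not, with r = 0.17.

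The group median of that ratio was 0.63 in normal, 1.97 in diabetic, 2.09 in treated diabetic and 0.75 in treated normal muscle, and both X06801cds probe sets had their lower group medians in diabetic and treated diabetic muscle, where the ratio was higher. With both ratios as covariates the change of X06801cds_i_at between diabetic and normal muscle was -0.14. Among the 18 relations of each member gene's brightest probe set with either ratio, 0 passed over 20 arrays (lowest adjusted p = 0.0533). The Gapdh ratio splits the arrays into 3 high and 17 low ones, and over the 17 low ones 5 relations passed: Acta1, Acta2 and Tagln with the Gapdh ratio, and Tagln and Vim with the beta-actin ratio, at r from 0.61 to 0.66.

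Tagln was measured by a pair of probe sets. Its brightest, M83107_g_at, read 4267, 3547, 4052, 3220 and 3201 in normal, 5869, 2305, 4763, 2749 and 4133 in diabetic, 3923, 2673, 3840, 4238 and 4317 in treated diabetic and 4746, 2355, 4528, 3357 and 1293 in treated normal muscle. All groups overlapped and the changes were small: 0.04 ± 0.32 between diabetic and normal (adjusted p = 0.966), 0.00 ± 0.32 for treated diabetic against diabetic (adjusted p = 0.999) and -0.30 ± 0.32 for treated normal against normal muscle (adjusted p = 0.786). M83107_at had -1.56 ± 0.66 for treated diabetic against diabetic muscle (adjusted p = 0.253), with 1488, 1668, 984, 980 and 36 in treated diabetic muscle, and -0.64 without the last of these. In that array, replicate 5, M83107_g_at had its highest value of the group. Genes most like the brightest were Serpina3n (r = 0.89), Slc22a3 (0.77) and Col1a1, a chain of type I collagen (0.75).

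Myl9 gave 2322, 1606, 1496, 2406 and 14813 at S77900_at in normal and 6478, 4643, 5593, 7579 and 3293 in diabetic muscle. Treated diabetic muscle gave 1802, 7033, 506, 3030 and 244, and treated normal muscle 4239, 6916, 4420, 1294 and 1818. Apart from normal replicate 5, all diabetic arrays lay above the normal ones. The change was 0.87 ± 0.75 between diabetic and normal (adjusted p = 0.572), or 1.46 without normal replicate 5 (adjusted p = 0.368), and -1.93 ± 0.75 for treated diabetic against diabetic muscle (adjusted p = 0.227). S77900_g_at, the other Myl9 probe set, ran from 1945 to 5322 over all arrays, with changes of -0.04 ± 0.28 and -0.29 ± 0.28 in these comparisons (adjusted p = 0.959 and 0.615).

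Cnn1 lay at the 31.0th to 69.8th percentile of its array. It read 499, 437, 368, 479 and 626 in normal, 1304, 196, 1244, 488 and 602 in diabetic, 565, 342, 435, 538 and 876 in treated diabetic and 293, 621, 677, 311 and 594 in treated normal muscle. Diabetic muscle held both the highest arrays, replicates 1 and 3, and the lowest, replicate 2. The change between diabetic and normal muscle was 0.39 ± 0.41 (adjusted p = 0.664), and without diabetic replicates 1 and 3 it was -0.28.

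Other smooth muscle genes were read from a list of 34, of which 15 were measured above the filter. None passed in any of the 6 comparisons, while 2.07% of all named genes passed between diabetic and normal muscle. Itga7, the laminin receptor subunit of muscle cells, had 1.05 ± 0.29 between diabetic and normal muscle (adjusted p = 0.0627), and Myh11, the smooth muscle myosin heavy chain, 1.32 ± 0.55 (adjusted p = 0.222). Csrp1, a LIM protein of smooth muscle, had -1.37 ± 0.60 for treated diabetic against diabetic muscle (adjusted p = 0.267), and Myh11 had -1.13 ± 0.55 (adjusted p = 0.32). The median over the 15 was 0.28 between diabetic and normal muscle (all genes: -0.04) and -0.23 for treated diabetic against diabetic muscle (all genes: 0.10). A shorter list of smooth muscle markers, 7 measured genes with the 4 members among them, had values above 0 in 7 of 7 genes between diabetic and normal muscle, also after quantile normalization and median centring. This count reads 1 probe set per gene, that of highest mean signal. At the other probe sets of the same genes, Myl9 had -0.04 (S77900_g_at, whose median signal was the higher of the pair) and Acta2 -0.54 and -1.03. Its mean difference from the normal group lay between 0.15 and 1.07 in diabetic arrays, overlapping with each other group (normal -0.63 to 0.31, treated diabetic -0.45 to 0.43, treated normal -0.45 to 0.41). None of its genes passed.

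Proteins that bind actin were represented by 29 measured genes of 65, with 0 past the threshold in any of the 6 comparisons. Between diabetic and normal muscle, Ezr (ezrin, which links actin to the membrane) had 1.71 ± 0.47 (adjusted p = 0.0633) and Tmod1 (tropomodulin, which caps the slow-growing end of thin filaments) -1.39 ± 0.39 (adjusted p = 0.0672). For treated diabetic against diabetic muscle, Actn2, the alpha-actinin of the Z-disc, had -0.84 ± 0.33 (adjusted p = 0.227) and Ezr -1.26 ± 0.47 (adjusted p = 0.215). Intermediate filament, lamin and costamere genes, 19 measured of 47, likewise gave 0 past the threshold in the 6 comparisons. Csrp3 (muscle LIM protein) had 1.5 ± 0.53 between diabetic and normal (adjusted p = 0.145) and -1.81 ± 0.53 for treated diabetic against diabetic muscle (adjusted p = 0.122). Hspb6, a small heat shock protein of muscle, had -0.79 ± 0.37 between diabetic and normal muscle (adjusted p = 0.286). For treated diabetic against diabetic muscle, Neb (nebulin) had 0.71 ± 0.21 (adjusted p = 0.125).

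Genes linked to serum response factor and to actin-dependent transcription, 9 measured of 23, included the called ones. Ankrd1, a stretch-responsive titin-binding protein, rose in diabetic muscle (3.62 ± 0.53, adjusted p = 0.00162) and was lower in treated diabetic than in diabetic muscle (-3.03 ± 0.53, adjusted p = 0.0118). Fhl2, a LIM protein of striated muscle, fell in treated diabetic against diabetic muscle (-3.29 ± 0.57, adjusted p = 0.0118). It also fell in the added comparison of treated with untreated arrays (-2.12 ± 0.40, adjusted p = 0.0362). The Fhl2 probe set was dim, at percentiles 7.02 to 69.8 of its array, with a median of 27.9. That median is below the percentile used in the filter on dim signals. No detection call is available, so the size of the Fhl2 changes is uncertain. The other 7 genes did not pass in any comparison. The actin probe sets did not pass in the comparisons in which Ankrd1 and Fhl2 did, and a difference between these genes and the actins was not tested.

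The members did not move as 1 block across arrays. Among the 36 pairs of member genes, read at their brightest probe sets over 20 arrays, 0 passed after adjustment. The lowest adjusted p was that of Actb with Myl9 (Pearson r = 0.69, permutation p = 0.00193, adjusted p = 0.0695; Spearman rho = 0.54, permutation p = 0.0154, adjusted p = 0.211), and r fell to 0.46 without the 2 arrays farthest from the median of Actb. The highest r was that of Actb with Des, 0.80 (permutation p = 0.0132, adjusted p = 0.138), with rho = 0.23 (permutation p = 0.334, adjusted p = 0.555). That pair passed with group means removed (r = 0.80, permutation test, adjusted p = 0.0371), but r was 0.01 without the 2 farthest arrays. Acta2 with Vim had r = 0.60 (permutation p = 0.00528, adjusted p = 0.095) and rho = 0.63 (permutation p = 0.00352, adjusted p = 0.127), with 0.60 without the 2 farthest arrays. For the remaining smooth muscle genes, those most alike were Myo1e (r = 0.75), Ctsb and Egr2 (0.74 each) for Acta2, Enpp3 (0.75), Hspa1a and Kars1 for Myl9, and Krt14 (0.77), Prr13 and Glycam1 for Cnn1.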

How the data were processed

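Per the labels' protocols, poly(A) RNA of muscle kept in a stabilising solution was labelled with biotin and hybridised to 20 arrays. For each array the authors deposited a signal intensity per probe set. The submitters' processing notes name MAS5 without a version. The mean after trimming 2% at each end was 2503.4 to 2506.46 in every array, so no further scaling was applied, and the median signal was 377 to 648. No detection calls are in the table. A probe set was tested when it lay above its array's 40th percentile in at least 5 of 20 arrays, controls left out (6027 of 8740). Group means of log2(signal + 16) were fitted with limma 3.58.1 (lmFit, eBayes; R 4.3.3), two-sided, with Benjamini-Hochberg adjustment. Genes with several probe sets are stood for by the brightest where lists are counted. Correlations used SciPy 1.17.1 with two-sided permutation tests of 100000 resamples.

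Gene names come from the platform annotation, and the 13 members' gene identifiers carry the same symbols in RefSeq. The members, gene lists and tests were chosen with earlier results of these data known. Named genes were drawn from those of a list past the threshold or, in lists with none, the 2 with the smallest p in each of the first 2 comparisons; not all of them are printed for the marker lists. Tnni1 was picked from the fibre list after its values were seen. For likeness, the 3 genes with the highest r are named. Lists read were smooth muscle partners, actin-binding proteins, intermediate filament and costamere genes, serum response factor genes, and markers of skeletal, regenerating, cardiac and smooth muscle, fibroblasts, endothelium, leukocytes, nerve and adipocytes. The fitting script was tested on simulated data. The main fit did not pair arrays by replicate number, and a block on that number was run as an alternative. Settings varied were the pseudocount, filter, normalization, array weights, ratio covariates and arrays left out.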

Additional observations from a re-analysis of the deposited data

Results flagged for a closer look

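In 7 of the 52 combinations of a member probe set with a group, 1 array lay apart from the other 4. Its gap was more than 0.71 of the group's range, which independent, normally distributed values give in about 1 in 20. The combinations share arrays, and the share over all probe sets was not computed. The count therefore says nothing about the members in particular. Actc1 was 1882.5 in diabetic replicate 5, against 25667 to 47217 in the others. Desmin was 2522.3 in treated diabetic replicate 5, against 64104 to 97708. Tagln was 35.7 there at M83107_at, against 980 to 1668, while at M83107_g_at treated diabetic replicate 2 was low at 2673.3, against 3840 to 4317. Myl9 was 14813 in normal replicate 5 at S77900_at, against 1496 to 2406. At its other probe set, Myl9 was 4300.5 in treated diabetic replicate 2, against 2406 to 2832, and 1944.6 in treated normal replicate 5, against 3742 to 4147.

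The treatment difference was unlike in diabetic and normal rats (limma interaction, log2 scale) for 4 genes of the lists and no member: Ankrd1 at -3.80 (adjusted p = 0.0442), Lox at -2.93 (adjusted p = 0.0442), Fcgr2b, an antibody receptor of leukocytes, at -2.16 (adjusted p = 0.0315) and Cidea, a lipid droplet protein, at -2.39 (adjusted p = 0.0442). Their treatment differences lay between -3.03 and -1.32 in diabetic rats and between 0.10 and 1.17 in normal rats, where none passed. None of these 4 interaction calls held after quantile normalization, and after median centring only that of Cidea did.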

How the results depend on the processing

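Counts of member probe sets past the threshold stayed at 0 of 13 except as follows: leaving out the arrays of high Gapdh ratio and treated diabetic replicate 5 gave 2 between diabetic and normal (Vim and Acta2 X06801cds_f_at); array weights gave 1 between diabetic and normal (Vim), 1 for treated diabetic against diabetic (Actc1) and 1 for all treated against all untreated arrays; leaving out the arrays of high Gapdh ratio gave 1 for treated diabetic against normal and 1 in the added comparison; and the larger pseudocount, median centring, the Gapdh ratio as covariate and both ratios as covariates each gave 1 in the added comparison, all of them Actc1. Leaving out 1 array at a time gave 0 to 1 member for treated diabetic against diabetic and in the added comparison and 0 in the others.

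Counts over all probe sets moved more. Between diabetic and normal (110) they were 62 with no filter, 71 with the groups compared alone, 515 with array weights, 282 with the Gapdh ratio as covariate, 32 with both ratios, 464 without the arrays of high Gapdh ratio and 24 to 247 leaving out 1 array. For treated diabetic against diabetic (30) they were 50 with the larger pseudocount, 19 with no filter, 11 alone, 112 with array weights and 10 to 59 leaving out 1 array. For treated normal against normal (4) they were 2 with the smaller pseudocount or with the arrays of high ratio left out, 0 with no filter, quantile normalization, median centring or the groups alone, 19 with array weights and 0 to 6 leaving out 1 array. For treated diabetic against normal (0; 770 at an unadjusted p under 0.05) they were 1 with array weights, 359 without the arrays of high ratio and 0 to 3 leaving out 1 array. The interaction (10) gave 1 with no filter, quantile normalization, both ratios or without the arrays of high ratio, 40 with array weights, 3 with the Gapdh ratio and 1 to 22 leaving out 1 array. The added comparison (6) gave 14 with the larger pseudocount or the Gapdh ratio, 10 with quantile normalization, 16 with median centring, 49 with array weights, 21 with both ratios, 27 without the arrays of high ratio and 0 to 15 leaving out 1 array. Leaving out those arrays together with treated diabetic replicate 5 gave 810, 17, 35 and 25 in the first 4 comparisons, in the order above, and 23 in the added one. Leaving out diabetic replicates 1 and 3 gave 3, 1, 1, 0, 1 and 0 in the 6 comparisons. The cause of these shifts was not tested.

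With the replicate number as a block the counts were 106, 39, 0, 0, 6 and 1 in these comparisons, with 0 members. Deviations of same-numbered arrays of different groups had a median r of 0.07 over 30 pairs, 11 of them above 0.1. Arrays of other numbers had a median r of 0.0038 over 120 pairs, 33 of them above 0.1. Of the 20 arrays, 6 were most alike an array of their own number. These values cannot decide whether the numbers pair the arrays or mark a shared batch. Median centring moved the median change of all probe sets for treated normal against normal muscle from 0.18 to -0.01. Relations of members with RNA quality past the threshold were 1 with quantile normalization and 5 over the 17 arrays of low Gapdh ratio, and pairs of members 1 with group means removed and 2 with quantile normalization. Acta2 with the Gapdh ratio turned from r = -0.302 over 20 arrays to 0.613 over 17 (permutation p = 0.00958, adjusted p = 0.0345). The precision is limited by 5 arrays per group and their scatter, and dim probe sets such as Cnn1 and X06801cds_i_at have no detection call here.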

Other observations

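Marker lists of other cells gave values not yet described. Of 5 measured adipocyte genes, 3 rose in diabetic muscle (2 after quantile normalization and 2 after median centring) and 1 of the list fell in treated diabetic against diabetic muscle, Cidea (-2.29 ± 0.33, adjusted p = 0.00299). Of 6 nerve and Schwann cell genes, 0 passed in any comparison, and the list's mean difference from the normal group ran from -0.52 to 0.46 in normal and -0.36 to 0.38 in diabetic muscle. The 14 skeletal muscle fibre genes gave 0 past the threshold in the 6 comparisons. Their median change was 0.64 for treated diabetic against diabetic and -0.65 for treated normal against normal muscle (all genes: 0.10 and 0.17). After quantile normalization these medians were -0.01 and -0.14. Several of these genes, Ckm and Tnnc2 among them, ranked near the top of every array, where that method holds changes near 0. It therefore cannot decide the directions, which are not settled. Of 11 genes of regenerating or immature muscle, Myh3 alone passed, between diabetic and normal muscle and, with the deposited scaling but not after quantile normalization or median centring, for treated diabetic against diabetic muscle. Esm1, an endothelial proteoglycan, was higher in diabetic than in normal muscle (1.96 ± 0.31, adjusted p = 0.00257) and lower in treated diabetic muscle (-2.08 ± 0.31, adjusted p = 0.00299).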
